A study of Bos indicus with 5 samples.

Results

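Epithelial cells of the oviduct are held to each other by 4 kinds of contact, and the genes described here encode the proteins that build them. Classical cadherins join neighbouring cells at adherens junctions through calcium-dependent binding, and catenins tie the cadherin tails to actin. Desmosomes use their own cadherins, the desmogleins and desmocollins, which are anchored to keratin by plakoglobin, plakophilins and desmoplakin. Claudins and occludin form the tight junctions that set how ions and water pass between cells, and connexins form the gap junction channels through which small molecules move from cell to cell. Protocadherins are a larger family of cadherin relatives, several of them encoded in clusters of similar genes. In the oviduct these contacts separate the luminal fluid around the embryo from the tissue below, and they also link the smooth muscle and vessel cells of the wall.

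The members were all rows of the ampulla table whose gene symbol names a cadherin (CDH), protocadherin (PCDH, except the PCDHB cluster), claudin (CLDN), alpha, beta or delta catenin (CTNN), connexin (GJ), desmosomal protein (DSG, DSC, DSP, PKP, JUP) or one of the tight junction proteins OCLN, F11R, JAM2, JAM3 and CGN. The rule used symbols only and no measured value. It found 106 of the 24616 genes, namely 22 cadherins, 21 protocadherins, 6 catenins, 13 desmosomal proteins, 21 claudins, 5 other tight junction proteins and 18 connexins. Genes that the table writes under another name escaped the rule, for example E-cadherin as E-CADHERIN and a zonula occludens scaffold as ZO1, which are given beside the members.

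Transcript abundance was measured by RNA-Seq of the full thickness of the ampulla, on the side of the corpus luteum, of healthy multiparous Nelore (Bos indicus) cows on day 4 after ovulation was induced. The 2 cows of the LF/LCL group (large follicle and large corpus luteum) and the 3 cows of the SF/SCL group (small follicle and small corpus luteum) all carried a 1 g progesterone device from day -10, were given 2 mg of estradiol benzoate on that day, had 0.5 mg of the prostaglandin analog cloprostenol at device removal and again 6 h later, and ovulated to 1 µg of the GnRH agonist buserelin. The groups differed in a further cloprostenol dose on day -10, given only to LF/LCL, and in the time from device removal to GnRH, which was 42 h in LF/LCL and 30 h in SF/SCL. No untreated cows were among these libraries, and the cows were picked by the study as extremes of follicle size and hormone levels, 1 library per cow.

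Values are normalized reads, which are the reads of a gene divided by 1 size factor per library. Libraries held 13418278 to 19592174 reads on genes. The share of all reads that fell on members was 0.753% ± 0.00038 (SD, n = 2) for LF/LCL against 0.762% ± 0.023 (SD, n = 3) for SF/SCL. A member with 0 reads in a library may still have had up to 3, and this limit covers counting error only. Normalized reads are not divided by gene length, so that levels are compared between libraries and not between genes. On the first principal component of all genes tested SF/SCL replicate 3 scored 59.5, against 12.1 and 11.4 for the other SF/SCL libraries and -42.4 and -40.6 for LF/LCL. Oviduct epithelium was present in all 5 libraries by its markers, with a summed level of the 6 secretory markers from 134259 to 163863 normalized reads, and with 9 of the 10 ciliated cell markers above 0 throughout (PIFO was at 0 in 4 libraries).

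The first question was how many members carried reads. A mean over 5 normalized reads, the condition for testing, was met by 85 of the 106 members. Of the other 21, 10 had no read in any library (CDH12, CDH15, CLDN14, CLDN17, CLDN18, CLDN19, CLDN25, GJA3, GJD2 and GJD4) and 11 had few (CDH9, CDH10, CDH18, CTNNA3, CLDN6, CLDN20, GJA10, DSG4, PCDH8, PCDHA3 and PCDHA11). Among these 11 the reads summed over the 5 libraries ran from 1 in CDH9 to 17 in PCDHA11. CDH15, the cadherin of skeletal muscle, CLDN18, known from stomach and lung, and GJA3, a lens connexin, were thus not detectable at this depth. A mean of at least 1000 normalized reads was reached by 20 members, and 34 of the 85 tested members had a mean under 50.

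The main comparison asked which members differed between the groups. In the limma fit 0 of the 85 tested members had an adjusted p under 0.05, against 0% of the 15815 genes tested (0 genes), and the smallest adjusted p of a member was 0.178. At the unadjusted level 12 members had a p under 0.05 (14.1% of those tested), against 11.5% of all genes. LF/LCL was the higher group in 7 of the 12, where 5.64% of all genes had such a p with LF/LCL higher, and the lower group in 5, where 5.86% had one with LF/LCL lower. With all 5 libraries these shares lie near those of all genes. Without SF/SCL replicate 1 the number of members with LF/LCL lower was 8, against 780 of the 15815 genes tested. Without LF/LCL replicate 1, with 1 LF/LCL cow left, fewer members had such a p with LF/LCL higher, and so did fewer genes. With all libraries the log2 fold change was above 0 in 51 of the 85 members, against 50.8% of all genes. The median was 0.16, against 0.005 over all genes. Among members with a mean under 50, 25 of 34 were above 0, against 1502 of 2676 genes of that range. With a mean from 50 to under 1000 it was 15 of 31 members, and with at least 1000 it was 11 of 20.

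Count tests on the recovered reads gave other numbers of calls. DESeq2 called 8 of the 85 members (9.41%) at an adjusted p under 0.05, against 2.89% of all genes. Of these 8, 3 were higher in LF/LCL, where DESeq2 called 1.38% of all genes, and 5 were lower, where it called 1.5%. The edgeR exact test called 6 (7.06%), all of them also called by DESeq2, against 2.12% of all genes. The edgeR quasi-likelihood test called 0 members and 0% of all genes, and it had an unadjusted p under 0.05 for 13 members and for 11.6% of all genes. Members called by both DESeq2 and the exact test were CDH3, CLDN10 and GJA1, higher in LF/LCL, and CDH17, CLDN11 and CTNNA2, lower in LF/LCL. DESeq2 alone called CDH23 and DSP, both lower in LF/LCL. Each p-value weighs the difference between the groups against the spread among cows within a group. That spread comes from these 5 cows, picked as extremes, and its estimate draws on all genes tested.

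**Figure D1:**
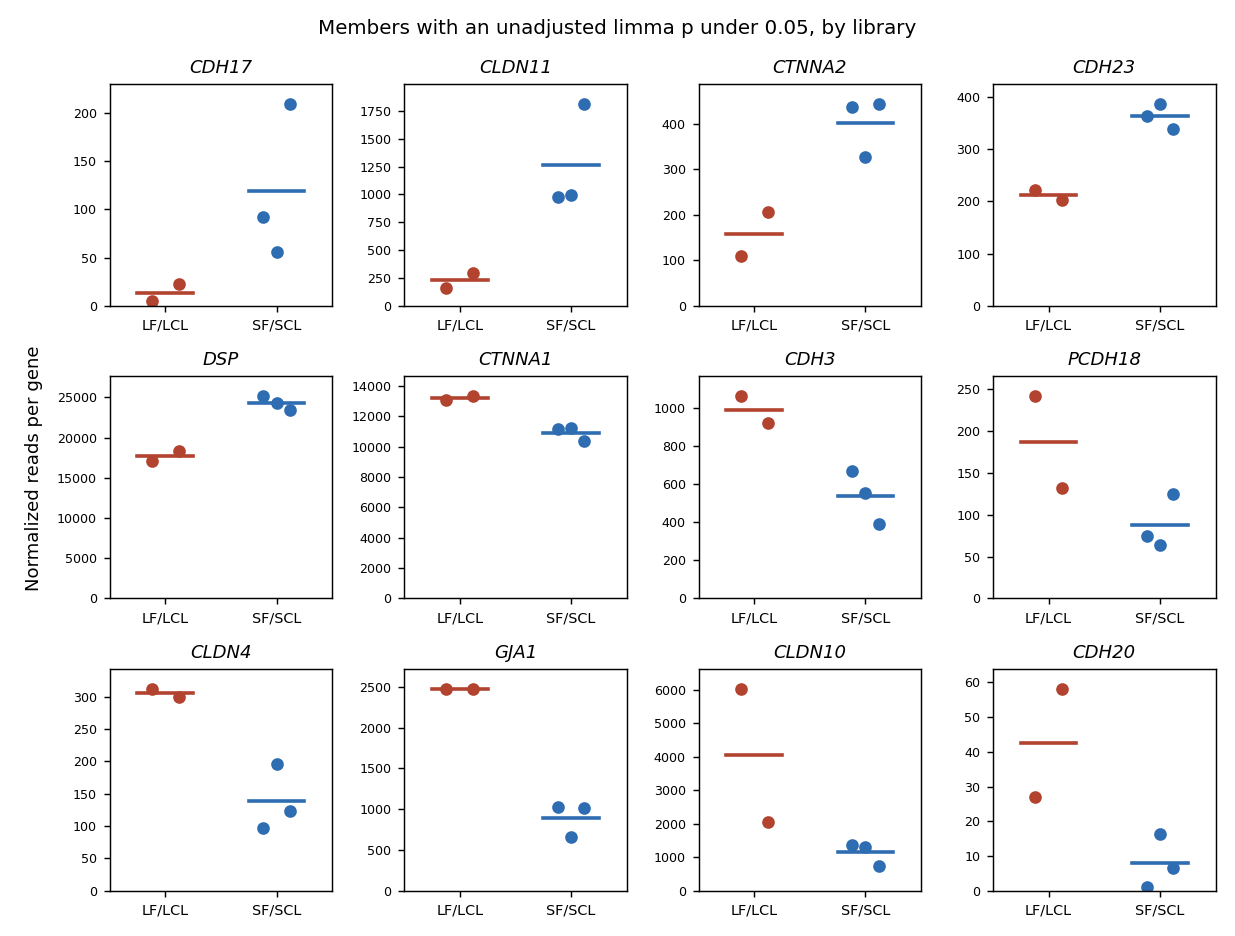
Normalized reads per library (points) and group mean (lines) of the 12 members with an unadjusted limma p under 0.05, each on its own linear axis from 0, ordered by fold change. The LF/LCL and SF/SCL points do not overlap in any of the 12, which were chosen by that p on these same values and so favour separation. GJA1 has 2473 and 2468 in LF/LCL against 656 to 1022 in SF/SCL.

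Of the 85 members 22 (25.9%) had no overlap between the groups, against 30.1% of all genes. LF/LCL lay above SF/SCL in 14 of these, against 15% of all genes, and below it in 8, against 15.1%. Members varied widely within a group. The median within-group SD on the log2 scale was 0.48 over the tested members and 0.23 over all genes tested. Among members with a mean from 50 to under 1000 normalized reads it was 0.48, against 0.22 over all genes of that range, and among members with a mean of at least 1000 it was 0.18, against 0.14.

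**Figure D2:**
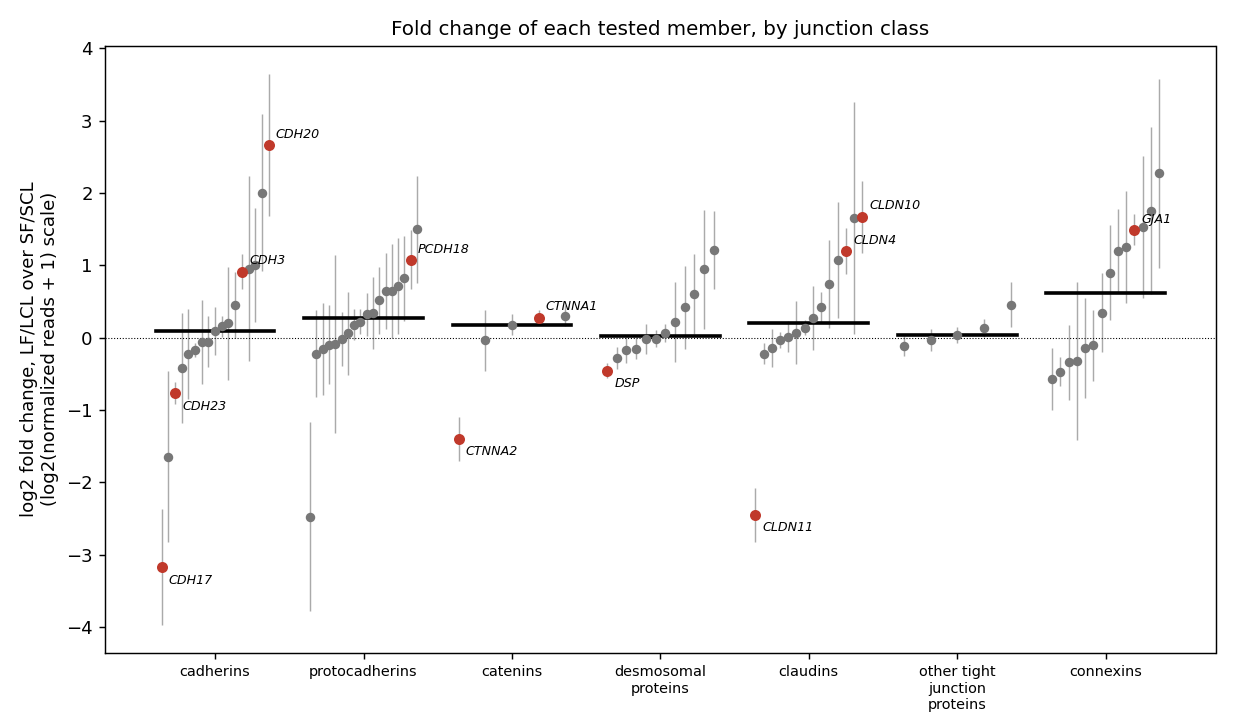
Log2 fold change (LF/LCL over SF/SCL, on the log2(normalized reads + 1) scale) of the 85 tested members in 7 junction classes, with the SE as grey bars and the class median as a black line. Red points with names are the 12 members with an unadjusted limma p under 0.05, and the class medians run from 0.03 in the desmosomal and other tight junction proteins to 0.62 in the connexins.

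Of the 22 cadherins, 17 were tested, 9 with a fold change above 0 and 8 below, and their median log2 fold change was 0.09. E-CADHERIN, the main cadherin of epithelia, had 2153 and 2027 normalized reads in the LF/LCL cows against 2045, 2565 and 2242 in the SF/SCL cows. The groups overlapped, with a log2 fold change of -0.12 ± 0.13 (SE). CDH2, or N-cadherin, had 1997 and 2128 normalized reads in the LF/LCL cows against 2258, 2302 and 2388 in the SF/SCL cows. All LF/LCL values of CDH2 lay below those of SF/SCL, but by little, with a log2 fold change of -0.17 ± 0.09 (SE) and an adjusted p of 0.554 in limma. The SF/SCL mean was 1.09 times the LF/LCL mean for E-CADHERIN and 1.12 times for CDH2.

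CDH3, or P-cadherin, which often sits beside E-cadherin in basal layers, differed more. It had 1060.2 and 920.5 normalized reads in the LF/LCL cows against 667, 555 and 388 in the SF/SCL cows. Both LF/LCL values were above every SF/SCL value, and the group means were 990.3 ± 98.8 (SD, n = 2) normalized reads for LF/LCL against 537 ± 140.4 (SD, n = 3) for SF/SCL, a ratio of 1.84. On the log2 scale the fold change was 0.91 ± 0.24 (SE), and the adjusted p was 0.302 in limma and 0.0447 in DESeq2. Without LF/LCL replicate 1 the unadjusted p of CDH3 was 0.053. In the RefSeq gene table of a Bos indicus assembly (NIAB-ARS_B.indTharparkar_mat_pri_1.0) CDH3 is the direct neighbour of CDH1, the gene of E-cadherin, and the fold changes of the neighbours were 0.91 and -0.12.

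CDH17, known as the cadherin of liver and intestine, had the log2 fold change farthest from 0 among the 85 tested members. It had 4.69 and 22.3 normalized reads in the LF/LCL cows against 92.5, 56.0 and 209 in the SF/SCL cows. LF/LCL replicate 1 was the lowest and SF/SCL replicate 3 the highest, and the group means differed 8.85-fold. This gave a log2 fold change of -3.17 ± 0.80 (SE), and the adjusted p was 0.298 in limma, 0.00814 in DESeq2 and 0.0393 in the edgeR exact test. The LF/LCL values of CDH17 rested on 4 and 23 reads.

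CDH23 is the large cadherin that pairs with PCDH15 in the tip links of sensory hair cells. It had 222 and 203 normalized reads in the LF/LCL cows against 364, 387 and 339 in the SF/SCL cows. The spread within each group was small, at 13.0 (SD, n = 2) and 24.0 (SD, n = 3), and the SF/SCL mean was 1.71 times the LF/LCL mean. Its log2 fold change was -0.77 ± 0.15 (SE), and the adjusted p was 0.223 in limma and 0.00571 in DESeq2. Its partner PCDH15 had 2.35 and 3.87 normalized reads in the LF/LCL cows against 3.12, 90.2 and 29.0 in the SF/SCL cows. PCDH15 was high in SF/SCL replicates 2 and 3 only, and SF/SCL replicate 1 lay within the LF/LCL range. The ciliated cell markers were also lower in LF/LCL in all 9 that were tested, none at an adjusted p under 0.05, with a summed level of 35425 and 46759 in the LF/LCL libraries and 56370.0, 53719.9 and 53178 in the SF/SCL libraries. Their part in the values of CDH23 was not tested. In whole tissue a smaller number of cells of a type and less RNA per cell cannot be told apart.

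CDH20, a type II cadherin, was the last cadherin with an unadjusted p under 0.05. It had 27.0 and 58.1 normalized reads in the LF/LCL cows against 1.04, 16.3 and 6.44 in the SF/SCL cows. Both LF/LCL values of CDH20 were the highest, with a log2 fold change of 2.67 ± 0.98 (SE) and an adjusted p of 0.397 in limma. These values rested on 111 reads in all, and the unadjusted p was 0.058 without LF/LCL replicate 1, 0.173 without LF/LCL replicate 2 and 0.063 without SF/SCL replicate 3. CDH19, a cadherin of Schwann cells, had 15.2 and 10.6 in the LF/LCL cows against 0, 8.55 and 3.22 in the SF/SCL cows. Both LF/LCL values were the highest here too, on 38 reads in all, and the log2 fold change of 2.00 ± 1.08 (SE) did not pass at either level.

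The other tested cadherins overlapped between the groups. CDH6, or K-cadherin, had 360 to 464 normalized reads over the 5 libraries and a log2 fold change of 0.16 ± 0.15. The values of CDH22 ran from 37.4 to 296, with the highest in LF/LCL replicate 1. CDH24 ran from 79.3 to 134, CDH4 from 10.6 to 36.4, CDH26 from 5.86 to 27.9, and CDH7, CDH8 and CDH16 had fewer than 50 reads each. CDH16, the kidney cadherin, had 9.38 and 10.6 in the LF/LCL cows against 13.5, 11.7 and 0 in the SF/SCL cows, so that its value was 0 in SF/SCL replicate 3 alone.

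The catenins link cadherins to the cytoskeleton. Of 6 members, 5 were tested. CTNNB1, or beta-catenin, which also acts in Wnt signalling, had 13064 and 16221 normalized reads in the LF/LCL cows against 13887, 13384 and 11410.1 in the SF/SCL cows. The groups overlapped and the log2 fold change was 0.18 ± 0.15 (SE). CTNND1, which binds the cadherin tail near the membrane, had 6326 and 8026 normalized reads in the LF/LCL cows against 6151, 6091 and 5152 in the SF/SCL cows. Both LF/LCL values were the highest of the 5, with a log2 fold change of 0.30 ± 0.15 (SE) and a limma adjusted p of 0.497.

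The alpha-catenins CTNNA1 and CTNNA2 had fold changes of opposite sign. CTNNA1, the epithelial form that bridges beta-catenin and actin, had 13099.9 and 13314 normalized reads in the LF/LCL cows against 11169, 11230.0 and 10347 in the SF/SCL cows. Its LF/LCL mean was 1.21 times the SF/SCL mean, with a log2 fold change of 0.28 ± 0.10 (SE) and an adjusted p of 0.387 in limma. The unadjusted p of CTNNA1 was over 0.05 in each fit that left out 1 of the 5 libraries, from 0.060 to 0.101. CTNNA2, the form best known from neurons, had 109 and 206 normalized reads in the LF/LCL cows against 436, 326 and 443 in the SF/SCL cows. All SF/SCL values were above both LF/LCL values, and the SF/SCL mean was 2.55 times the LF/LCL mean. The log2 fold change of CTNNA2 was -1.40 ± 0.31 (SE), and the adjusted p was 0.248 in limma and 0.00792 in DESeq2. CTNND2, another catenin of neurons, ran from 52.8 to 109 with overlapping groups.

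Desmosomal proteins were represented by 13 members, of which 12 were tested. DSP, or desmoplakin, which anchors keratin to the desmosome, had 17091 and 18392 normalized reads in the LF/LCL cows against 25139.8, 24277 and 23498 in the SF/SCL cows. These are 110888 reads in total, and the values within each group lay close together. Every SF/SCL value was above both LF/LCL values, with group means of 17741 ± 919.8 (SD, n = 2) normalized reads for LF/LCL against 24305 ± 821 (SD, n = 3) for SF/SCL, and the SF/SCL mean was 1.37 times the LF/LCL mean. The log2 fold change of DSP was -0.45 ± 0.10 (SE), and the adjusted p was 0.261 in limma, 0.00301 in DESeq2 and 0.217 in the edgeR exact test.

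No other desmosomal member was called by any of these tests. JUP, or plakoglobin, which serves both desmosomes and adherens junctions, had 7836 and 7703 normalized reads in the LF/LCL cows against 6866, 9522 and 10258 in the SF/SCL cows. The lowest value of JUP was in SF/SCL replicate 1, and the log2 fold change was -0.17 ± 0.19 (SE). The plakophilin PKP2 had 2191 and 1845 in the LF/LCL cows against 1941, 2289.5 and 2506 in the SF/SCL cows, with a log2 fold change of -0.15 ± 0.15, and PKP4 had 1527 and 1132 in the LF/LCL cows against 1548, 1574 and 1681 in the SF/SCL cows, with one of -0.28 ± 0.15. PKP3 ran from 537 to 806 and PKP1 from 19.3 to 59.0. The desmosomal cadherins DSG2 and DSC2, the pair of simple epithelia, overlapped between the groups, with 3209.9 and 3872 normalized reads in the LF/LCL cows against 3428, 3151 and 3552 in the SF/SCL cows for DSG2 and log2 fold changes of 0.06 ± 0.12 and -0.01 ± 0.11.

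The desmosomal cadherins typical of stratified epithelia had few reads. DSG1, DSG3 and DSC1 each had means under 50, and DSG4 had 2 reads in all. DSG1 had 16.4 and 18.4 in the LF/LCL cows against 7.28, 8.55 and 5.37 in the SF/SCL cows, with both LF/LCL values the highest and a log2 fold change of 1.21 ± 0.54 (SE) that did not pass. DSC3 ran from 151 to 522, highest in LF/LCL replicate 1 and in SF/SCL replicate 1. In the same RefSeq gene table the 4 desmogleins, the 3 desmocollins and CDH2 follow each other without another protein-coding gene between them.

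Of the 21 claudins, 14 were tested, with fold changes above 0 in 10 and a median of 0.20. CLDN11, a claudin best known from myelin and from the Sertoli cell barrier of the testis, was lower in LF/LCL. It had 163 and 299 normalized reads in the LF/LCL cows against 974, 998 and 1813 in the SF/SCL cows. The lowest SF/SCL value was over the highest LF/LCL value by a wide margin, and the SF/SCL mean was 5.46 times the LF/LCL mean. The log2 fold change of CLDN11 was -2.45 ± 0.37 (SE), and the adjusted p was 0.178 in limma, 2.21e-07 in DESeq2 and 8.36e-06 in the edgeR exact test. Leaving out any one library kept the log2 fold change between -2.88 and -2.01.

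CLDN10, which forms ion-selective channels between cells, was higher in LF/LCL, but not equally in both cows. It had 6021 and 2066 normalized reads in the LF/LCL cows against 1355, 1322 and 754 in the SF/SCL cows. LF/LCL replicate 1 stood well above the rest, and without it the log2 fold change was 0.90 in place of 1.67, with an unadjusted p of 0.059. With all libraries the SE was 0.50 and the limma adjusted p was 0.336, while DESeq2 gave an adjusted p of 0.00546.

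CLDN4, a sealing claudin, had 312 and 300.1 normalized reads in the LF/LCL cows against 96.7, 197 and 123 in the SF/SCL cows. Both LF/LCL values were above all SF/SCL values, the LF/LCL mean was 2.20 times the SF/SCL mean, and the log2 fold change was 1.20 ± 0.32 (SE) with an adjusted p of 0.306 in limma. The direct neighbour of CLDN4 in the RefSeq gene table, CLDN3, had 4777 and 4712 normalized reads in the LF/LCL cows against 3819.8, 4345 and 2678 in the SF/SCL cows. Both LF/LCL values of CLDN3 were also the highest of the 5, with a smaller log2 fold change of 0.42 ± 0.21 (SE) and an adjusted p of 0.502 in limma. DESeq2 called neither of them, with adjusted p of 0.0647 for CLDN4 and 0.53 for CLDN3.

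Other claudins known from epithelial barriers had smaller fold changes. CLDN7 had 3763 and 4339 normalized reads in the LF/LCL cows against 4103, 3961 and 4325 in the SF/SCL cows, and CLDN1 had 3267 and 3115 in the LF/LCL cows against 3141, 2869 and 2708 in the SF/SCL cows. Their log2 fold changes were -0.03 ± 0.11 and 0.14 ± 0.11, and the groups overlapped in both. CLDN12 had 386 and 481 in the LF/LCL cows against 488, 501 and 523 in the SF/SCL cows, with both LF/LCL values the lowest and a log2 fold change of -0.22 ± 0.14 that did not pass. CLDN8 ran from 101 to 153 and CLDN16, next to CLDN1 in the gene table, from 138 to 189.

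Few reads fell on CLDN2 and CLDN15, which form pores for cations, and on CLDN23 and CLDN9. CLDN2 had 50.4 and 49.4 normalized reads in the LF/LCL cows against 29.1, 54.4 and 7.51 in the SF/SCL cows, lowest in SF/SCL replicate 3, with overlapping groups and a log2 fold change of 1.07 ± 0.80 (SE). CLDN15 ran from 15.6 to 21.5, CLDN23 from 10.7 to 36.4 and CLDN9 from 0 to 52.8, with overlap of the groups in each.

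None of the other tight junction proteins had an unadjusted p under 0.05. OCLN, or occludin, had 1699 and 1363 normalized reads in the LF/LCL cows against 1305, 1428 and 1429 in the SF/SCL cows. F11R, an immunoglobulin-type adhesion protein of tight junctions, had 4346 and 4503 normalized reads in the LF/LCL cows against 3895, 4539 and 4576 in the SF/SCL cows, and CGN, the scaffold cingulin, had 4186 and 3993 normalized reads in the LF/LCL cows against 4029.8, 5153 and 4158 in the SF/SCL cows. Their log2 fold changes were 0.13 ± 0.13, 0.03 ± 0.11 and -0.11 ± 0.14. The groups overlapped in all 5 members of this class. JAM3 ran from 1419 to 1829.5 and JAM2, found also in vessels, from 381 to 812, with a log2 fold change of 0.45 ± 0.31. The scaffold ZO1, which is not a member, had 4971 and 3828 normalized reads in the LF/LCL cows against 5412, 4726 and 4677 in the SF/SCL cows, with a log2 fold change of -0.18 ± 0.15.

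**Figure D3:**
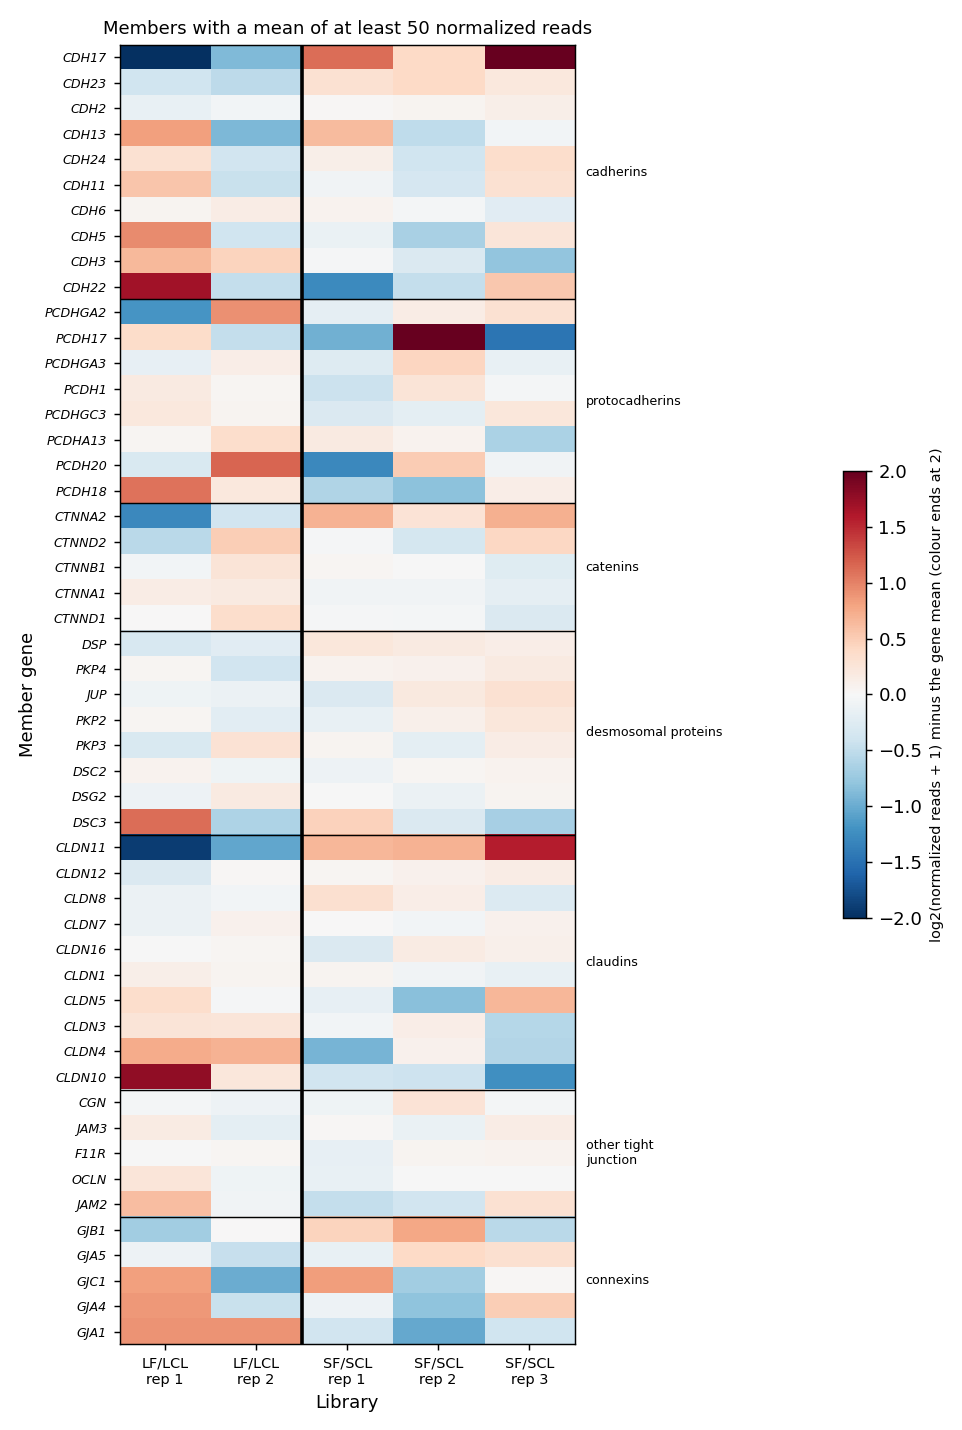
Log2(normalized reads + 1) minus the mean of the gene over the 5 libraries, for the members with a mean of at least 50 normalized reads, one row per gene within its class and one column per library, with the black vertical line between LF/LCL and SF/SCL. OCLN, F11R, CGN and JAM3 are pale in all libraries, whereas GJA1 and CLDN11 change colour at the line and CDH13 and GJC1 change within the groups.

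Connexins comprised 18 members, of which 14 were tested. Their median log2 fold change of 0.62 was the highest of the 7 classes, and it was 0.34 under the stricter filter that asks for a mean above the SD. GJA1, a widely expressed connexin that is found in smooth muscle and stroma, had the smallest limma p of all members. It had 2473 and 2468 normalized reads in the LF/LCL cows against 1022, 656 and 1009.9 in the SF/SCL cows. The LF/LCL cows were nearly equal, all SF/SCL cows were lower, and the LF/LCL mean was 2.76 times the SF/SCL mean. The log2 fold change of GJA1 was 1.49 ± 0.21 (SE), and the adjusted p was 0.178 in limma, 6.6e-07 in DESeq2 and 1.36e-06 in the edgeR exact test. The fold change lay between 1.28 and 1.60 when any one library was left out.

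Smooth muscle markers differed in the same direction as GJA1. LF/LCL was higher in all 9 of these markers tested, none of them at an adjusted p under 0.05, and their summed level was 120010.0 and 62047 in the LF/LCL libraries and 37633, 41171 and 15485 in the SF/SCL libraries. The marker sum differed between the LF/LCL cows, in which GJA1 was at 2473 and 2468, and its part in the values of GJA1 was not tested. GJC1, another connexin of smooth muscle, had 84.4 and 23.2 in the LF/LCL cows against 85.3, 28.8 and 48.3 in the SF/SCL cows, with no common direction.

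GJA5, a connexin of arterial endothelium and heart, had 4907 and 3847 normalized reads in the LF/LCL cows against 4752, 6963 and 6586 in the SF/SCL cows. One SF/SCL library lay between the LF/LCL values, and the log2 fold change was -0.47 ± 0.20 (SE) with an adjusted p of 0.454 in limma. GJB1, a connexin of glandular epithelia, had 201 and 329 normalized reads in the LF/LCL cows against 444, 556 and 224 in the SF/SCL cows. The SF/SCL cows differed more from each other than the groups did, with a log2 fold change of -0.57 ± 0.43 (SE).

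The remaining connexins had few reads. GJB2, the connexin of cochlea and skin, ran from 5.20 to 26.1, and its neighbour GJB6 had 29.3 and 13.6 in the LF/LCL cows against 10.4, 6.99 and 7.51 in the SF/SCL cows, with both LF/LCL values the highest and a log2 fold change of 1.19 ± 0.58 (SE) that did not pass. GJB5, a connexin known from skin, had 34 reads over all libraries, overlapping groups and a log2 fold change of 1.75 ± 1.16 (SE). GJA9 and GJC3 also had overlapping groups, and their means were under 50.

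Of the 21 protocadherins, 18 were tested, 12 with a fold change above 0, and the median was 0.27. PCDH18, expressed in mesenchyme, was the one with an unadjusted p under 0.05. It had 242 and 132 normalized reads in the LF/LCL cows against 74.9, 63.7 and 124 in the SF/SCL cows. The lower LF/LCL value and the highest SF/SCL value differed by little, and the log2 fold change was 1.08 ± 0.41 (SE) with an adjusted p of 0.411 in limma. Without LF/LCL replicate 1 it was 0.64 with an unadjusted p of 0.239, and without SF/SCL replicate 1 or 2 that p was 0.092 or 0.091. Stromal fibroblast markers were higher in LF/LCL in 7 of 8 genes, 0 of them at an adjusted p under 0.05, with a median log2 fold change of 0.76 and a summed level of 75101 and 31676 in the LF/LCL libraries and 35359.9, 19442 and 42769.7 in the SF/SCL libraries. Their part in the values of PCDH18 was not tested. PCDH7 had 77.4 and 44.5 in the LF/LCL cows against 27.0, 38.9 and 7.51 in the SF/SCL cows, with a log2 fold change of 1.50 ± 0.73 (SE) that did not pass.

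The clustered protocadherins share similar sequence and, within a cluster, their last exons, so that reads may be split between or lost from members, and their values are uncertain. PCDHGC3, a C-type member of the gamma cluster, had 4089 and 3651 normalized reads in the LF/LCL cows against 2879.9, 3077 and 4129 in the SF/SCL cows. The groups overlapped, with a log2 fold change of 0.22 ± 0.17 (SE). PCDHGA2 ran from 80.9 to 351 and PCDHA13 from 134 to 266, and PCDHGA3, PCDHGA5, PCDHGA7, PCDHGB2, PCDHA5 and PCDHAC1 had means of 15.1 to 50.8. PCDH9 and PCDH19, which are not in these clusters, had means of 10.6 and 8.85. PCDH17 varied widely within SF/SCL and had 56.3 and 31.0 in the LF/LCL cows against 21.8, 255 and 15.0 in the SF/SCL cows. SF/SCL replicate 2 alone was high, and for PCDH20, with 77.4 and 215 in the LF/LCL cows against 38.5, 136 and 91.2 in the SF/SCL cows, LF/LCL replicate 2 was the highest. PCDH1, an epithelial protocadherin, ran from 504 to 813.

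Some members known from vessels varied from cow to cow within both groups. CDH5, or VE-cadherin, the adherens junction cadherin of endothelium, had 477 and 188 normalized reads in the LF/LCL cows against 226, 159 and 292 in the SF/SCL cows. CLDN5, the endothelial claudin, had 289 and 223 in the LF/LCL cows against 203, 127 and 359.5 in the SF/SCL cows, and GJA4, an arterial connexin, had 136 and 54.2 in the LF/LCL cows against 69.7, 42.0 and 105 in the SF/SCL cows. Each of the 3 had its highest values in LF/LCL replicate 1 and SF/SCL replicate 3, although CLDN5 was higher in the latter and the others in the former, and its lowest in SF/SCL replicate 2, and their log2 fold changes were 0.45 ± 0.45, 0.27 ± 0.44 and 0.34 ± 0.55. The summed level of the 7 endothelium markers found was 7311 and 4697 in the LF/LCL libraries and 6155, 5737 and 8149.8 in the SF/SCL libraries. The marker sum was thus highest in SF/SCL replicate 3 and LF/LCL replicate 1 too, but lowest in LF/LCL replicate 2. Its order rests heavily on KDR, the marker with the highest value in each library. KDR had 2080.5 and 1797 normalized reads in the LF/LCL cows against 3546, 2699 and 3560 in the SF/SCL cows. PCDH12, an endothelial protocadherin, ran from 16.6 to 45.1 and did not share the low value in SF/SCL replicate 2.

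The mesenchymal cadherin CDH11 had 932 and 469 normalized reads in the LF/LCL cows against 605, 504 and 787 in the SF/SCL cows, with a log2 fold change of 0.09 ± 0.33 (SE). CDH11 and the summed stromal fibroblast markers were both highest in LF/LCL replicate 1, followed by SF/SCL replicates 3 and 1. CDH13, a cadherin without a cytoplasmic tail found in vessels and stroma, had 205 and 61.9 normalized reads in the LF/LCL cows against 179.9, 81.6 and 112 in the SF/SCL cows. Its log2 fold change of -0.06 ± 0.58 turned with single cows, and was -0.92 when LF/LCL replicate 1 was left out and 0.79 when replicate 2 of that group was. The part of cell mixture in these values was not tested.

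**Figure D4:**
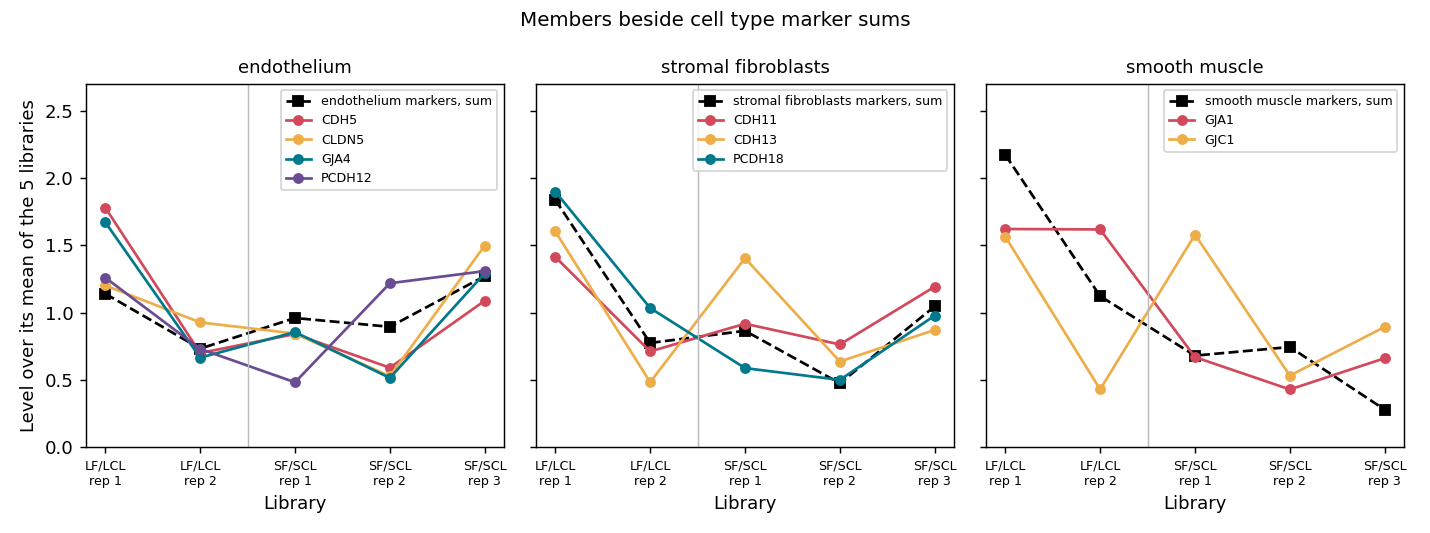
Level of members (coloured lines) and summed level of the marker list (dashed black) in each library, divided by its own mean over the 5 libraries, for endothelium, stromal fibroblasts and smooth muscle. CDH5 runs from 0.59 in SF/SCL replicate 2 to 1.78 in LF/LCL replicate 1, and GJA1 is at 1.62 in both LF/LCL libraries while the smooth muscle markers are at 2.17 and 1.12.

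A list of other junction genes, which are not members, was examined in the same fit. Of the 62 names listed, 49 were tested and 0 had an adjusted p under 0.05 with limma, with DESeq2 or with the edgeR tests, while 11 (22.4%) had an unadjusted p under 0.05 with limma, against the 11.5% of all genes, 6 with LF/LCL higher and 5 with it lower. Without LF/LCL replicate 1 fewer of these genes had one, and so did fewer of all genes. The 6 were VCL and ACTN1, which attach cadherin complexes to actin, EPCAM, an epithelial adhesion protein, the nectin PVRL4, the giant cadherin FAT4 and CGNL1, a relative of cingulin. VCL had 4801 and 3745 normalized reads in the LF/LCL cows against 3048, 2834 and 3097 in the SF/SCL cows, with a log2 fold change of 0.50 ± 0.13 (SE). EPCAM had 16806 and 14311 normalized reads in the LF/LCL cows against 10534, 13863 and 11202 in the SF/SCL cows, with a log2 fold change of 0.40 ± 0.16 (SE). Neither group overlapped the other in VCL or EPCAM. The log2 fold changes of ACTN1, PVRL4, FAT4 and CGNL1 were 0.47 ± 0.13, 0.35 ± 0.11, 0.82 ± 0.24 and 0.73 ± 0.22 (SE).

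The 5 that were lower in LF/LCL were CXADR, an adhesion receptor of tight junctions, the nectin PVRL3, the polarity proteins PARD6B and PRKCZ, and AMOTL2. CXADR had 439.8 and 402 normalized reads in the LF/LCL cows against 603, 570.4 and 599.9 in the SF/SCL cows, with a log2 fold change of -0.49 ± 0.12 (SE) and an adjusted p of 0.289 in limma. PVRL3 had 114 and 201 normalized reads in the LF/LCL cows against 251, 327 and 314 in the SF/SCL cows, so that the nectins PVRL3 and PVRL4 differed in opposite directions, with log2 fold changes of -0.96 ± 0.29 and 0.35 ± 0.11. Those of PARD6B, PRKCZ and AMOTL2 were -0.45 ± 0.14, -0.27 ± 0.11 and -0.74 ± 0.21. GJA1, CTNNA1, CLDN4, VCL and ACTN1 stand in lists that the study drew for LF/LCL from these libraries, and CTNNA2, CDH23 and CXADR in those for SF/SCL, so that their direction here is not independent evidence.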

How the data were processed

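The authors sequenced ampulla RNA as polyA-selected TruSeq libraries in read pairs. They left 1 further LF/LCL library out for its low read number, and the libraries of 5 cows are analysed here. The authors filtered reads with seqyClean, aligned them with TopHat2 2.0.8 and Bowtie2 2.1.0 to masked UMD 3.1, sorted them with SAMtools 0.1.18 and counted uniquely mapped, unambiguous reads per gene with HTSeq 0.5.4p2 (strand setting not given in the sources used here). The deposited values are a normalized signal, the read count divided by a size factor from DESeq 1.12.1, 1 column per cow, written with 3 decimals. The unit was taken as signal and not as counts, so that the main test was limma 3.58.1 (R 4.3.3) on log2(value + 1), by lmFit with a robust, trended eBayes, for the 15815 genes with a mean over 5, two-sided, with Benjamini-Hochberg adjustment over all of them. Fold changes of low genes on this scale can be too small, through the added 1, or too large, through a single value near 0. For CDH16, at 0 in SF/SCL replicate 3, the log2 fold change was 0.952 in this fit. It was 1.25 with 0.5 added in place of 1, and 0.251 with DESeq2. Near-identical, overlapping and antisense genes are uncertain.

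Whole reads were recovered by dividing by the step of each library, within 0.001 of the deposited value, for 100% of nonzero values, and were tested with edgeR 4.0.16 and DESeq2 1.42.0. Leaving out an LF/LCL library leaves 1 cow there, assumed to vary like the others. No batch was in the labels, and replicate numbers pair nothing. The main limma fit, the main edgeR quasi-likelihood test, DESeq2 and the edgeR exact test were run on simulated data. The fits with other settings or without a replicate were not. The members, gene lists and tests were chosen with earlier results of these data known. Named in the text are members fixed by role, those with an unadjusted p under 0.05, the 3 of each class with the most reads, and others stated by range. A few genes that enter the counts are not reported here by name. E-CADHERIN and ZO1 were matched by the names in the table, the latter after the table was seen. Of the 106 members 94 matched the RefSeq gene table by symbol. It covers another assembly and served only for gene neighbours. No sequence is shown. PECAM1 and ACTG2 were not analysed here.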

Additional observations from a re-analysis of the deposited data

How the results depend on the processing

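The count of 0 members with an adjusted p under 0.05 became 8 with DESeq2 and 6 with the edgeR exact test, and over all genes tested 0 became 457 and 335. The cause was not tested. It was 0 under both quasi-likelihood fits, the other pseudocounts, filters, scalings, plain estimation, the threshold of 0.1 and without each replicate (0 to 0, for members and for all genes). The 12 members with an unadjusted p under 0.05 numbered from 11 to 15 without one replicate, from 4 (without LF/LCL replicate 1) to 10 with LF/LCL higher and from 5 to 8 (without SF/SCL replicate 1) with LF/LCL lower. All 12 had the same direction without each replicate. This was fixed in advance, because their groups do not overlap and the fits reuse the libraries that selected them. CDH17 and CDH20 were not tested under the filter on mean over SD. The other junction genes with such a p ran from 2 to 13 without one replicate. Members whose groups do not overlap numbered 22, and from 32 to 50 without one replicate, where fewer samples enter. Fewer samples separate more easily, and the share of all genes is not given for these fits. The 22 and the range from 32 to 50 therefore cannot be compared. With all libraries 892 genes had an unadjusted limma p under 0.05 with LF/LCL higher and 927 with it lower. Without SF/SCL replicate 1, 2 or 3 these were 824, 815 and 705 higher and 780, 843 and 792 lower. Fits without an LF/LCL replicate leave 1 cow there, and their counts over all genes are not given. The lowest member total and the lowest count with LF/LCL higher come from those fits. So do both ends of the range of the other junction genes. These counts therefore cannot be set apart from a change over all genes. Of all genes that had an unadjusted p under 0.05, 49% had LF/LCL higher. With library size scaling it was 39.5% of such genes, and the median log2 fold change of all genes was -0.030. Of the members that had such a p, 58.3% had LF/LCL higher, and 50% with library size scaling.

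The median of the connexins, 0.62, was 0.34 without a filter and with the filter on mean over SD, where other genes enter, and ran from 0.42 to 0.88 without one replicate. Of 39 named members tested, 12 changed sign in some fit, none of which had an adjusted p under 0.05. CDH13 went from -0.062 to 0.101 in both quasi-likelihood fits, 0.103 with DESeq2 and 0.102 with the exact test, and F11R from 0.033 to -0.0034 with library size scaling. Without one replicate CDH13 ran from -0.918 to 0.794, CDH11 from -0.403 to 0.585, CDH16 from -0.302 to 1.63, CDH5 from -0.218 to 1.12, CLDN5 from -0.091 to 0.658, CLDN7 from -0.133 to 0.072, DSG2 from -0.071 to 0.199, F11R from -0.043 to 0.073, GJA4 from -0.313 to 0.999, GJC1 from -1.05 to 0.767, JAM3 from -0.212 to 0.154 and OCLN from -0.025 to 0.294. No paired analysis was possible because each library came from a different cow, and each cow belonged to only 1 of the groups.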

Other observations

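S100B, a gene of Schwann cells, was examined beside CDH19 and CDH20. It had 27894 and 35927 normalized reads for LF/LCL against 20010, 13945 and 9770 for SF/SCL, with a limma adjusted p of 0.306. The proliferation markers were higher in LF/LCL in all 6 genes, with sums of 683 and 378 in the LF/LCL libraries and 241, 270.5 and 158 in the SF/SCL libraries, and the immune markers in 7 of 8, with sums of 2351 and 3297 in the LF/LCL libraries and 2646, 1474 and 2457 in the SF/SCL libraries. The mesothelium markers were lower in LF/LCL in 4 of 5 tested genes, with sums of 11192 and 17989 in the LF/LCL libraries and 21529, 15752 and 21785 in the SF/SCL libraries, and the blood markers had sums of 507 and 65.8 in the LF/LCL libraries and 21.8, 234 and 16.1 in the SF/SCL libraries, with ALAS2 at 0. Of the genes in these 4 lists 0 had an adjusted p under 0.05 with limma.

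The reads of PCDH15 and PCDH17 came mainly from 1 or 2 cows. In PCDH15, replicates 2 and 3 of SF/SCL had 90.2 and 29.0 normalized reads, against at most 3.87 in the other 3 libraries. PCDH17 had 255 in SF/SCL replicate 2, against at most 56.3 elsewhere. The labels give no property of that cow that sets it apart.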
